A study of Drosophila melanogaster with 4 samples.

Results

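A group of 10 fly genes was taken here by name: *p53*, *Corp*, *Xrp1*, *rpr*, *hid*, *skl*, *Diap1*, *egr*, *lok* and *mei-41*. They are *p53* itself, genes that p53 is known to switch on, the caspase inhibitor gene *Diap1*, and the checkpoint kinases that act above p53. Their symbols were matched to the FlyBase identifiers of the deposited count tables, and all 10 of 10 were found among 17023 listed genes. RNA was sequenced from ovaries of *Drosophila melanogaster* dissected 2 to 3 days after eclosion. One genotype was UAS-Dcr2;nosGAL4>Nipped_A RNAi, in which a hairpin targets *Nipped-A*, the scaffold shared by the Tip60 and SAGA acetyltransferase complexes. It was set against UAS-Dcr2;nosGAL4>bam RNAi, in which a hairpin targets *bam*, the factor that daughters of germline stem cells need to differentiate. All flies carried UAS-Dcr2, which strengthens RNA interference, and the nosGAL4 driver, which is active in germ cells, so that the somatic cells of the ovary are not the site of the knockdown. There were 2 libraries per genotype and no group without a hairpin, and nothing in the labels tells if separate flies went into each. The p-values therefore measure the spread between these libraries, which may be technical.

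In flies the kinases encoded by *mei-41* (the ATR kinase) and *lok* (the Chk2 kinase) sense and relay DNA damage, and Lok phosphorylates p53. Active p53 switches on the cell death genes *rpr*, *hid* and *skl*, whose products bind Diap1, a ubiquitin ligase that keeps caspases in check, and so free the caspases. In the fly ovary, p53 responds to the breaks made in meiosis and to damage in germline stem cells, and Lok halts egg development when breaks persist.

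Library totals were 47825006 and 21193517 counts for the *Nipped-A* RNAi-labelled libraries 1 and 2, and 33844807 and 23866988 counts for the *bam* RNAi-labelled libraries 1 and 2. *bam* had 29.0 and 16.9 CPM (counts divided by library size, with the sizes scaled by the TMM method) in the *Nipped-A* RNAi-labelled libraries, against 4.70 and 6.52 CPM in the *bam* RNAi-labelled libraries. *Nipped-A* had 430 and 439 CPM in the *Nipped-A* RNAi-labelled libraries, against 287 and 247 CPM in the *bam* RNAi-labelled libraries. The target was thus not lower under its own label. Its call (log2 fold change 0.70, edgeR, Benjamini-Hochberg adjusted p = 0.0287) ended with the trend of fold change on gene length removed (0.31, adjusted p = 0.131). It also ended under upper-quartile scaling (0.49, adjusted p = 0.0524). With no group without a hairpin, and a driver active in germ cells within whole ovaries, the knockdown cannot be judged from this. Every direction here therefore refers to library labels. Genes that mark germ cells summed to 2668 and 2061 CPM in the *Nipped-A* RNAi-labelled libraries and to 1331 and 1284 CPM in the *bam* RNAi-labelled libraries (7 of 8 listed, as *vas* was not analysed here). Past the threshold 5 were higher, among them the target *bam*, and 1 was lower. Both *aub* and *piwi* lay lower in the *Nipped-A* RNAi-labelled libraries. Follicle cell markers, of which 5 of 8 rose and 1 fell, summed to 12257 and 12834 CPM in the *Nipped-A* RNAi-labelled libraries, against 6646 and 6976 CPM in the *bam* RNAi-labelled libraries. Most of that sum came from *Yp1*, *Yp2* and *Yp3*. In the same order of groups, *tj* had 164 and 225 against 256 and 252 CPM, and *mirr* 20.3 and 29.5 against 54.2 and 51.5 CPM. *yellow-g2* had 246 and 61.3 CPM in *Nipped-A* RNAi-labelled libraries 1 and 2, against 0.965 and 0.639 CPM in the *bam* RNAi-labelled libraries. Germ cell and follicle cell genes were thus detected in every library. The *Nipped-A* RNAi-labelled libraries stood apart from each other in gut genes: 8 of 8 digestive enzyme genes rose, and their sum was 961 and 3532 CPM in libraries 1 and 2, against 3.98 and 5.46 CPM in the *bam* RNAi-labelled libraries, where *LysE* was at 0 in both. Muscle sheath markers summed to 7574 and 9725 CPM in the *Nipped-A* RNAi-labelled libraries, against 26163 and 26116 CPM in the *bam* RNAi-labelled libraries (7 of 8 fell). Hemocyte markers summed to 3258 and 3376 CPM in the *Nipped-A* RNAi-labelled libraries, against 8384 and 7393 CPM in the *bam* RNAi-labelled libraries (4 of 7 fell and 1 rose). Fat body markers summed to 1740.5 and 1566 CPM in the *Nipped-A* RNAi-labelled libraries, against 921 and 862 CPM in the *bam* RNAi-labelled libraries (2 of 7 rose and 4 fell). Most of the sum in the *Nipped-A* RNAi-labelled libraries came from *apolpp*, at 1248 and 1317 CPM, against 493 and 419 CPM in the *bam* RNAi-labelled libraries. *Fbp1*, *Fbp2* and *Lsp1alpha* were at 0 in *Nipped-A* RNAi-labelled library 2. In the *bam* RNAi-labelled libraries they had 59.9 and 73.6, 31.2 and 24.0, and 14.4 and 13.0 CPM. The part of these cell types in the results below was not tested. Leaving out single libraries cannot test it, because these sums differed between the groups in both libraries of each.

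All 10 members had enough counts to be tested, the lowest count being 84, for *rpr* in *bam* RNAi-labelled library 2. A single member passed the test: *Corp* was 2.21-fold higher in the *Nipped-A* RNAi-labelled libraries (edgeR quasi-likelihood test, two-sided, Benjamini-Hochberg adjustment over all 10245 genes tested, threshold 0.05). That is 1 of 10 members, where 19.6% of all genes tested passed the same test in either direction and 11.3% passed it as higher. The death gene *hid* and the kinase gene *lok* were 1.90-fold and 1.69-fold higher without passing, and the other 7 members differed by less than 1.47-fold either way. In 5 of 10 members the groups did not overlap, 3 of them higher and 2 lower in the *Nipped-A* RNAi-labelled libraries. Over all genes tested the groups did not overlap for 68.9%, with 33.6% higher and 35.3% lower. The median log2 fold change of the members was 0.16, and that of all genes tested −0.0011. Because whole ovaries were sequenced, fewer cells of a type and less RNA per cell cannot be told apart in any of these values.

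**Figure D1:**
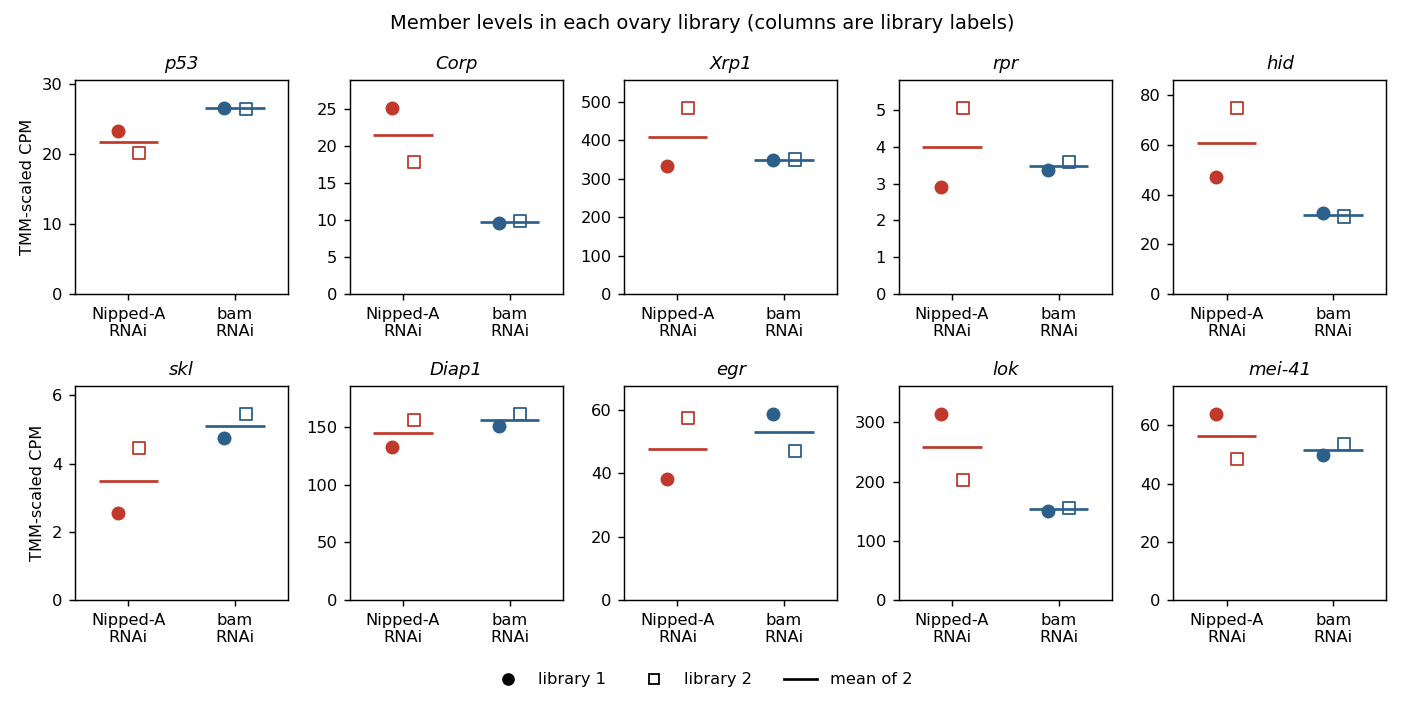
Level of each member in TMM-scaled CPM (y axis, from 0, own scale per gene) in each library, grouped by library label; filled circles are library 1, open squares library 2 and bars the mean of both. *Corp*, *hid* and *lok* lie higher in both *Nipped-A* RNAi-labelled libraries, and the libraries with that label are farther apart than the *bam* RNAi-labelled libraries for every member shown, with *egr* the least even member in the *bam* RNAi-labelled libraries.

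*p53* itself (FBgn0039044, dm6 chromosome 3R, 23049657 to 23054082, minus strand) encodes the transcription factor at the centre of the group, and its annotation holds 4 transcripts from 3 start sites. It had 23.3 and 20.1 CPM in *Nipped-A* RNAi-labelled libraries 1 and 2, against 26.6 and 26.4 CPM in *bam* RNAi-labelled libraries 1 and 2. Both *Nipped-A* RNAi-labelled libraries were lower, but the difference was small: the log2 fold change was −0.29 ± 0.20 (SE), with a 95% interval from −0.80 to 0.23 (edgeR, Benjamini-Hochberg adjusted p = 0.344). A fall to 0.575 of the level in the *bam* RNAi-labelled libraries and a rise to 1.17 times that level thus both lie within the interval. An antisense gene absent from the count tables covers 812 of the 2136 exonic bases of *p53*, and since the strand setting of the counting is not given in the sources used here, its reads cannot be told apart from those of *p53*.

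*Corp* (companion of reaper; FBgn0030028, chromosome X, 8269898 to 8271409, minus strand) is a target of p53 and encodes a protein that binds p53 and limits it. It had 25.2 and 17.8 CPM in *Nipped-A* RNAi-labelled libraries 1 and 2, against 9.59 and 9.89 CPM in *bam* RNAi-labelled libraries 1 and 2. The groups did not overlap, and the lower *Nipped-A* RNAi-labelled library still stood well above both others. Its log2 fold change was 1.14 ± 0.28 (SE), with a 95% interval from 0.45 to 1.84 (edgeR, Benjamini-Hochberg adjusted p = 0.0439). The call lay close to the threshold, with adjusted p from 0.00181 to 0.0611 over 10 other settings: it held in 8 of the 10. It ended under upper-quartile scaling (log2 fold change 0.93, adjusted p = 0.0611), which shifts the median of all genes by about −0.21 on the log2 scale, and with the replicate number as a block (log2 fold change 1.12, adjusted p = 0.0534). It also ended without *bam* RNAi-labelled library 1 or 2 (log2 fold changes 1.13 and 1.17, adjusted p = 0.240 and 0.307), where edgeR called 0 genes of the whole table, with 2373 and 1837 at an unadjusted p below 0.05.

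*Xrp1* (FBgn0261113, chromosome 3R, 18914968 to 18926989, plus strand) encodes a bZIP transcription factor that p53 induces after damage and that drives the loss of slow-growing cells in competition. It had 333 and 485 CPM in *Nipped-A* RNAi-labelled libraries 1 and 2, against 348 and 350 CPM in the *bam* RNAi-labelled libraries. Library 1 lay just below both *bam* RNAi-labelled libraries and library 2 far above them, so the groups overlapped. The log2 fold change was 0.23 ± 0.20 (SE; edgeR, Benjamini-Hochberg adjusted p = 0.450), with a 95% interval from −0.29 to 0.74. Without *Nipped-A* RNAi-labelled library 1 it was 0.47 (edgeR, adjusted p = 0.0111), and without library 2 it was −0.0024 (adjusted p = 0.991), so the value rested on library 2. In both of those fits the spread came from the *bam* RNAi-labelled pair alone, which were nearly equal for *Xrp1*, so the first is no support for a rise.

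The death genes *hid*, *rpr* and *skl* lie on chromosome 3L together with *grim*, the fourth gene of this class, all on the minus strand within 272 kb. *hid* (FBgn0003997, 18167745 to 18185641) is the largest, with 4 exons and a protein of 410 residues, while *rpr* (FBgn0011706, 18397535 to 18398435) and *skl* (FBgn0036786, 18438561 to 18439942) have a single exon each and encode 65 and 108 residues. Of the 10 genes of that interval in the count tables, *hid*, *rpr* and *skl* had enough counts to be tested, and *grim* had 0 counts in all 4 libraries. With 3 counts as the limit that a count of 0 allows, *grim* could have had up to 0.0611 and 0.141 CPM in *Nipped-A* RNAi-labelled libraries 1 and 2, and up to 0.0904 and 0.128 CPM in the *bam* RNAi-labelled libraries, which covers counting error only.

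**Figure D2:**
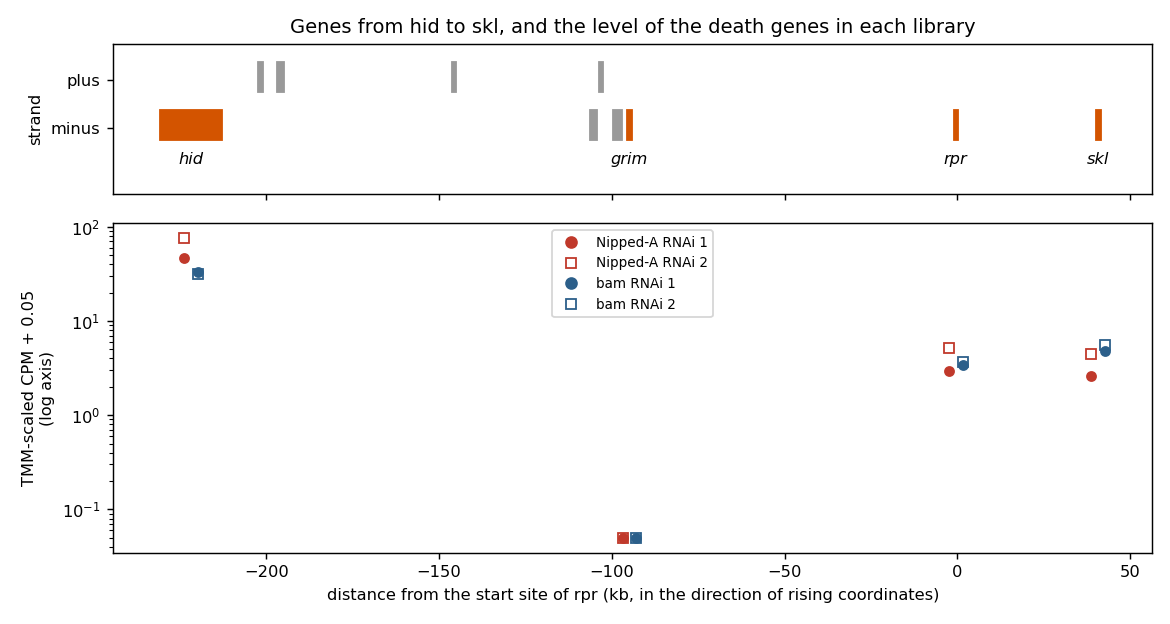
Upper panel: the 10 listed genes from *hid* to *skl* by strand and distance in kb from the start of *rpr*, with *hid*, *grim*, *rpr* and *skl* in orange. Lower panel: TMM-scaled CPM plus 0.05 of those 4 genes on a log axis in each library; *hid* stands above *rpr* and *skl* in every library, and *grim* is at 0 in all 4 libraries.

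*hid* had 47.0 and 75.0 CPM in *Nipped-A* RNAi-labelled libraries 1 and 2, against 32.8 and 31.2 CPM in *bam* RNAi-labelled libraries 1 and 2. The groups did not overlap, and library 2 was the higher of the *Nipped-A* RNAi-labelled libraries. Its log2 fold change was 0.93 ± 0.27 (SE), with a 95% interval from 1.19-fold to 3.03-fold higher, and it missed the threshold (edgeR, unadjusted p = 0.0159, Benjamini-Hochberg adjusted p = 0.0651). *hid* passed with DESeq2 (adjusted p = 0.00411; 35.0% of all genes passed there), with robust moderation in edgeR (adjusted p = 0.0462; 21.3% of all genes) and with no filter on low counts (edgeR, adjusted p = 0.0255; 18.4% of all genes). Without *Nipped-A* RNAi-labelled library 1 or 2 its log2 fold change was 1.22 and 0.62 (edgeR, adjusted p = 0.000261 and 0.0137). In each of those fits a single *Nipped-A* RNAi-labelled library was assumed to vary like the *bam* RNAi-labelled pair, and 36.2% and 38.8% of all genes passed, so they add no support. Over the 10 other settings its adjusted p ran from 0.00411 to 0.127, and without single libraries from 0.000261 to 0.362.

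*rpr* and *skl* were rare transcripts. *rpr* had 143 and 108 counts in *Nipped-A* RNAi-labelled libraries 1 and 2, or 2.91 and 5.06 CPM, against 112 and 84 counts, or 3.38 and 3.58 CPM, in *bam* RNAi-labelled libraries 1 and 2. Library 1 was below and library 2 above both *bam* RNAi-labelled libraries. The exact Poisson 95% intervals, which cover counting error only, ran from 2.45 to 3.43 CPM and from 4.15 to 6.11 CPM in *Nipped-A* RNAi-labelled libraries 1 and 2. These intervals do not overlap. The log2 fold change of *rpr* was 0.19 ± 0.48 (edgeR, Benjamini-Hochberg adjusted p = 0.796), and its 95% interval, from −1.02 to 1.40, leaves room for a 2.02-fold fall as well as a 2.64-fold rise. *skl* had 125 and 95 counts, or 2.54 and 4.45 CPM, in the *Nipped-A* RNAi-labelled libraries, against 158 and 128 counts, or 4.76 and 5.46 CPM, in the *bam* RNAi-labelled libraries. Both *Nipped-A* RNAi-labelled libraries were lower, library 2 only slightly so. Its log2 fold change was −0.55 ± 0.47, with a 95% interval from −1.73 to 0.62 (edgeR, Benjamini-Hochberg adjusted p = 0.423).

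*Diap1* (FBgn0260635, chromosome 3L, 16038410 to 16051034, minus strand), the inhibitor that these death proteins bind, had 132 and 156 CPM in *Nipped-A* RNAi-labelled libraries 1 and 2, against 151 and 161 CPM in the *bam* RNAi-labelled libraries. The groups overlapped, and the interval was the narrowest of the group: the log2 fold change was −0.11 ± 0.14, with a 95% interval from −0.48 to 0.25 (edgeR, Benjamini-Hochberg adjusted p = 0.603). Changes of *Diap1* beyond a fall to 0.719 or a rise to 1.19 times the level in the *bam* RNAi-labelled libraries therefore lie outside it. An antisense gene absent from the count tables covers 347 of the 3143 exonic bases of *Diap1*, and as for *p53* its reads cannot be told apart. Per kilobase of exon, *rpr*, *hid*, *skl* and *grim* together came to 0.398 and 0.554 of the level of *Diap1* in *Nipped-A* RNAi-labelled libraries 1 and 2, against 0.320 and 0.306 in *bam* RNAi-labelled libraries 1 and 2. *hid* made up 69.7% and 67.9% of that sum in the *Nipped-A* RNAi-labelled libraries and 53.2% and 49.5% in the *bam* RNAi-labelled libraries. With 2 libraries a side no exact permutation test on this ratio can reach 0.05, so it is given as a description.

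*egr* (eiger; FBgn0033483, chromosome 2R, 10078366 to 10084210, plus strand) encodes the fly's TNF ligand, which acts on cells through JNK signalling. It had 38.1 and 57.3 CPM in *Nipped-A* RNAi-labelled libraries 1 and 2, against 58.7 and 47.1 CPM in *bam* RNAi-labelled libraries 1 and 2. The groups overlapped, and *egr* was the least even member in the *bam* RNAi-labelled libraries. Its log2 fold change was −0.15 ± 0.26, with a 95% interval from −0.80 to 0.50 (edgeR, Benjamini-Hochberg adjusted p = 0.701), and the sign turned without *Nipped-A* RNAi-labelled library 1 (0.11) or *bam* RNAi-labelled library 1 (0.03).

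Of the checkpoint kinases, *lok* (FBgn0019686, chromosome 2L, 20061422 to 20064381, plus strand) had 314 and 203 CPM in *Nipped-A* RNAi-labelled libraries 1 and 2, against 150 and 156 CPM in *bam* RNAi-labelled libraries 1 and 2. Both *Nipped-A* RNAi-labelled libraries were higher, and here library 1 was the higher of them. The log2 fold change of *lok* was 0.76 ± 0.23 (95% interval 0.18 to 1.33), which missed the threshold (edgeR, unadjusted p = 0.0188, Benjamini-Hochberg adjusted p = 0.0718). It passed with DESeq2 (adjusted p = 0.00574) and with no filter on low counts (edgeR, adjusted p = 0.0236). Without *Nipped-A* RNAi-labelled library 1 or 2 its log2 fold change was 0.40 and 1.10 (edgeR, adjusted p = 0.0285 and 7.10e-05), with the spread again taken from the *bam* RNAi-labelled pair alone and the same 36.2% and 38.8% of all genes passing. Its adjusted p ran from 0.00574 to 0.120 over the 10 other settings, and up to 0.347 without single libraries. The summed level of the germ cell markers was also higher in *Nipped-A* RNAi-labelled library 1 than in library 2, with 5 of 7 genes higher there, and its part in the level of *lok* was not tested. The exons of *lok* share 121 of their 2439 bases with the germline gene *vls* on the opposite strand.

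*mei-41* (FBgn0004367, chromosome X, 16391698 to 16399850, plus strand) encodes a kinase of 2517 residues, the longest protein of the group. It had 63.9 and 48.4 CPM in *Nipped-A* RNAi-labelled libraries 1 and 2, against 49.8 and 53.4 CPM in *bam* RNAi-labelled libraries 1 and 2. The groups overlapped: library 1 lay above both *bam* RNAi-labelled libraries and library 2 below both. The log2 fold change was 0.12 ± 0.20, with a 95% interval from −0.39 to 0.63 (edgeR, Benjamini-Hochberg adjusted p = 0.690). Its sign turned under upper-quartile scaling (−0.09), with the trend of fold change on gene length removed (−0.24) and without *Nipped-A* RNAi-labelled library 1 (−0.10). The exons of *mei-41* share 69 of their 7899 bases with *CG9981* on the opposite strand.

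**Figure D3:**
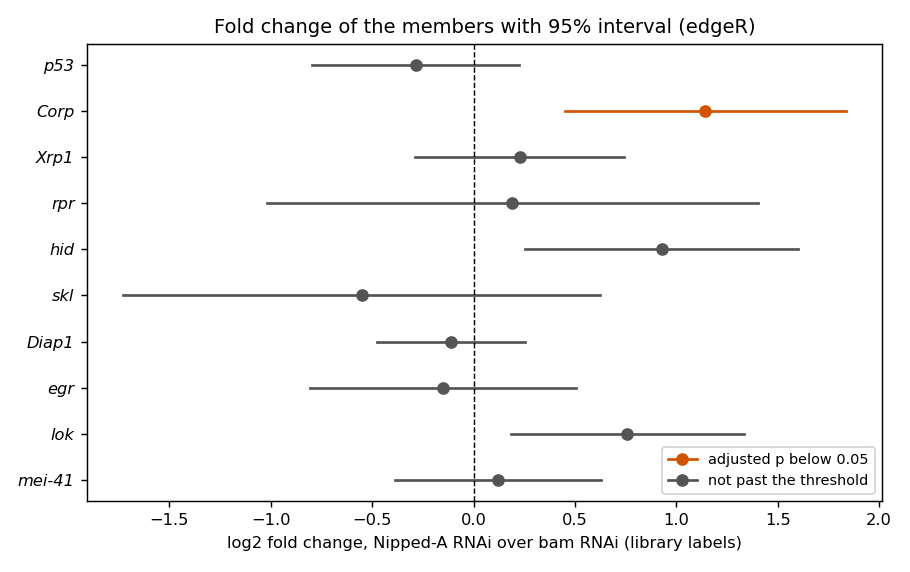
Log2 fold change of each member, *Nipped-A* RNAi-labelled libraries over the *bam* RNAi-labelled libraries (x axis), with its 95% interval from the edgeR fit; orange marks the member past the adjusted threshold. The intervals of *Corp*, *hid* and *lok* lie above 0, and those of the rare transcripts *rpr* and *skl* are the widest.

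The *Nipped-A* RNAi-labelled libraries differed from each other in every member. *lok*, *Corp*, *mei-41* and *p53* were higher in library 1, by log2 ratios of 0.63, 0.50, 0.40 and 0.21. *rpr*, *hid*, *skl*, *Xrp1*, *egr* and *Diap1* were higher in library 2, with log2 ratios of library 1 over library 2 of −0.80, −0.67, −0.81, −0.54, −0.59 and −0.24. The 95% counting interval, which covers counting error only, excluded 0 for all 10 members. For the *bam* RNAi-labelled libraries it did so for *egr* (0.32) and *Diap1* (−0.10) and for no other member. The share of all genes tested for which it did so was not computed, so these counts do not set the members apart. Over all genes tested, the middle 50% of these log2 ratios ran from −0.41 to 0.30 in the *Nipped-A* RNAi-labelled libraries and from −0.16 to 0.20 in the *bam* RNAi-labelled libraries. By definition, 50% of all genes tested lie outside such a range. Among the members, only *p53* and *Diap1* lay inside it in the *Nipped-A* RNAi-labelled libraries. In the *bam* RNAi-labelled libraries only *egr* and *skl* lay outside it. The gut marker sum was 3.67 times as high in library 2 as in library 1, with 8 of 8 genes higher there, and the germ cell marker sum was 0.773 times as high, with 5 of 7 genes higher in library 1. The part of either in the members' ratios was not tested.

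**Figure D4:**
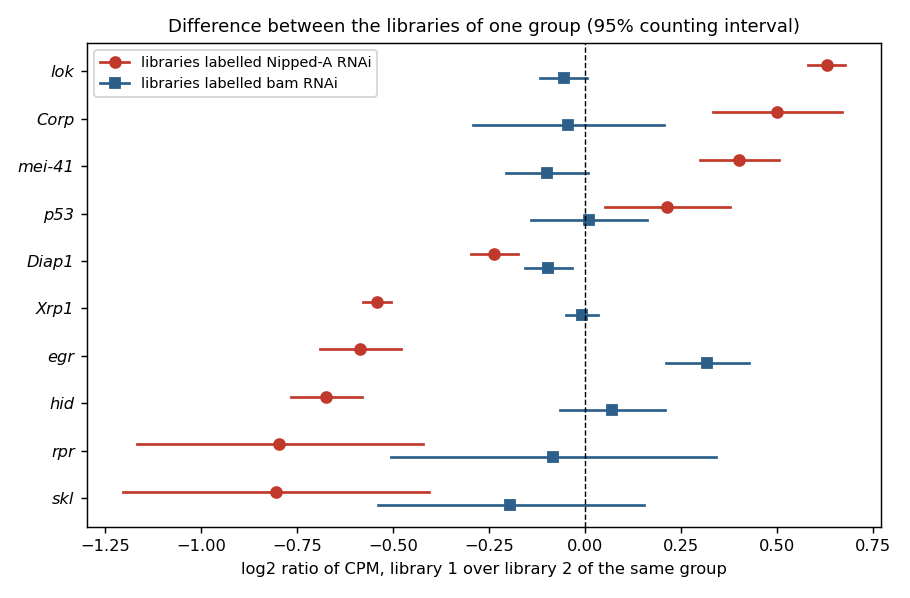
Log2 ratio of the CPM of library 1 over library 2 of the same group for each member (x axis), with 95% intervals for counting error from the exact binomial method; red circles are the *Nipped-A* RNAi-labelled libraries and blue squares the *bam* RNAi-labelled libraries. The members fall on both sides of 0 in red, from *lok* at 0.63 to *skl* at −0.81, and stay within 0.32 of 0 in blue.

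Levels were compared between genes as TMM-scaled CPM per kilobase of exon. In the *Nipped-A* RNAi-labelled libraries, *lok* averaged 106 ± 32.2 (SD, n = 2) and *Xrp1* 84.7 ± 22.3, and their ranges overlapped. *Diap1* followed at 45.9 ± 5.32, then *egr* at 22.02 ± 6.24, *Corp* at 17.7 ± 4.28 and *hid* at 15.2 ± 4.93, with overlapping ranges between neighbours from *egr* to *hid*. *p53* averaged 10.2 ± 1.06, *mei-41* 7.10 ± 1.39, *rpr* 4.42 ± 1.69 and *skl* 2.53 ± 0.976, each without overlap with its neighbour. *rpr* at 3.231 in library 1 lay barely above *skl* at 3.221 in library 2, so these ranks are not clearly separated. In the *bam* RNAi-labelled libraries the order began with *Xrp1* at 72.3 ± 0.311, *lok* at 62.8 ± 1.75, *Diap1* at 49.6 ± 2.34 and *egr* at 24.4 ± 3.79. There *p53*, at 12.4 ± 0.0585, stood above *Corp* at 8.01 ± 0.175 and *hid* at 7.97 ± 0.274, whose ranges overlapped, and *mei-41*, *rpr* and *skl* closed the order at 6.53 ± 0.322, 3.86 ± 0.160 and 3.70 ± 0.354, the ranges of *rpr* and *skl* overlapping. Among all annotated genes tested, *lok* lay above 93.7% in the *Nipped-A* RNAi-labelled libraries and above 87.8% in the *bam* RNAi-labelled libraries, *p53* above 38.0% and 47.0%, and *skl* above 22.2% and 27.6%.

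The members were set beside 7 lists of genes of the same pathways, of which 82 of 85 genes were tested. Of those, 14 rose and 2 fell in the *Nipped-A* RNAi-labelled libraries, or 19.5%, near the 19.6% of all genes tested in either direction. The lists leaned more to higher calls than all genes tested, of which 1153 (11.3%) rose and 851 fell, and this was not tested. The median log2 fold change of the listed genes was 0.29. All values in this and the next paragraph are from the same edgeR fit with Benjamini-Hochberg adjustment. Of 14 tested genes of the caspase machinery, 2 rose (median 0.06, range −0.84 to 2.79). The initiator caspase gene *Dronc* had 86.2 and 80.8 CPM in the *Nipped-A* RNAi-labelled libraries, against 38.8 and 46.2 CPM in the *bam* RNAi-labelled libraries (0.97 ± 0.17, adjusted p = 0.0229). *Bruce*, which encodes a very large inhibitor of apoptosis, had 525 and 537 CPM in the *Nipped-A* RNAi-labelled libraries, against 289 and 253 CPM in the *bam* RNAi-labelled libraries (0.97 ± 0.13, adjusted p = 0.0156). These 2 calls, both higher, are 14.3% of the list. Of all genes tested, 19.6% passed in either direction and 11.3% as higher. With the length trend removed *Bruce* was at 0.58 (adjusted p = 0.0474). Of 13 tested damage sensing genes, 3 rose (median 0.38): *Claspin*, the adaptor of the Chk1 kinase (0.80 ± 0.14, adjusted p = 0.0230), *Brca2*, which acts in the repair of breaks (0.83 ± 0.19, adjusted p = 0.0372), and *mus304*, the partner of Mei-41 (1.01 ± 0.23, adjusted p = 0.0394). *mus304* had 43.9 and 32.2 CPM in the *Nipped-A* RNAi-labelled libraries, against 18.7 and 19.2 CPM in the *bam* RNAi-labelled libraries. Of 15 DNA repair genes, 1 rose (median 0.51): the helicase gene *Blm*, at 126 and 94.6 CPM in the *Nipped-A* RNAi-labelled libraries, against 52.6 and 44.6 CPM in the *bam* RNAi-labelled libraries (1.18 ± 0.20, adjusted p = 0.0218). In the damage sensing list 13 of 13 tested genes, and in the repair list 13 of 15, were higher in library 1 than in library 2 of the *Nipped-A* RNAi-labelled libraries. So were 7 of 8 cell cycle genes and 58 of 82 genes of all the lists, and over all genes tested this held for 50.8%. The calls of *Claspin* and *Brca2* ended with the length trend removed (adjusted p = 0.0508 and 0.0534), and those of *Brca2* and *mus304* under upper-quartile scaling (adjusted p = 0.0567 and 0.0560).

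Of 8 cell cycle genes, 3 rose (median 0.52). The genes of the Cdc25 phosphatases, which push cells into division, rose most: *stg* had 395 and 257 CPM in the *Nipped-A* RNAi-labelled libraries, against 106 and 86.0 CPM in the *bam* RNAi-labelled libraries (1.76 ± 0.25, adjusted p = 0.0159), and *twe*, which acts in meiosis, had 116 and 73.0 CPM in the *Nipped-A* RNAi-labelled libraries, against 29.7 and 29.9 CPM in the *bam* RNAi-labelled libraries (1.66 ± 0.26, adjusted p = 0.0182). *trbl*, which lowers the Stg protein, rose by 0.69 ± 0.16 (adjusted p = 0.0388; 0.0699 under upper-quartile scaling and 0.0584 with the replicate block). Downstream of *egr*, 3 of 15 genes rose (median 0.15): the kinase genes *slpr* (1.18 ± 0.21, adjusted p = 0.0238) and *hep* (0.72 ± 0.14, adjusted p = 0.0279), and *Tab2*, whose product binds the kinase Tak1 (0.98 ± 0.22, adjusted p = 0.0384). The calls of *hep* and *Tab2* ended with the length trend removed (adjusted p = 0.123 and 0.0643), and that of *Tab2* under upper-quartile scaling (adjusted p = 0.0519). Around *Xrp1*, 0 of 8 tested stress response genes rose and 1 fell (median −0.10): *eIF2alpha*, the translation factor that the stress kinases phosphorylate, had 194 and 164 CPM in the *Nipped-A* RNAi-labelled libraries, against 272 and 258 CPM in the *bam* RNAi-labelled libraries (−0.57 ± 0.14, adjusted p = 0.0494). That call ended under RLE scaling, library size alone, limma-voom, the replicate block and the length correction, 5 of the 10 other settings (adjusted p = 0.0551 to 0.115). Of 9 genes for the engulfment of dying cells, 2 rose and 1 fell (median 0.07). *mbc*, an activator of Rac (1.25 ± 0.14, adjusted p = 0.0127), and *Ced-6*, the adaptor of the receptor Draper (0.98 ± 0.13, adjusted p = 0.0151), rose, while *NimC4*, a receptor that hemocytes and glia use to bind dying cells, fell to 11.0 and 15.6 CPM in the *Nipped-A* RNAi-labelled libraries, against 47.3 and 46.7 CPM in the *bam* RNAi-labelled libraries (−1.82 ± 0.25, adjusted p = 0.0151). The hemocyte markers, of which 4 of 7 fell, moved the same way as *NimC4*, and their part in its fall was not tested.

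**Figure D5:**
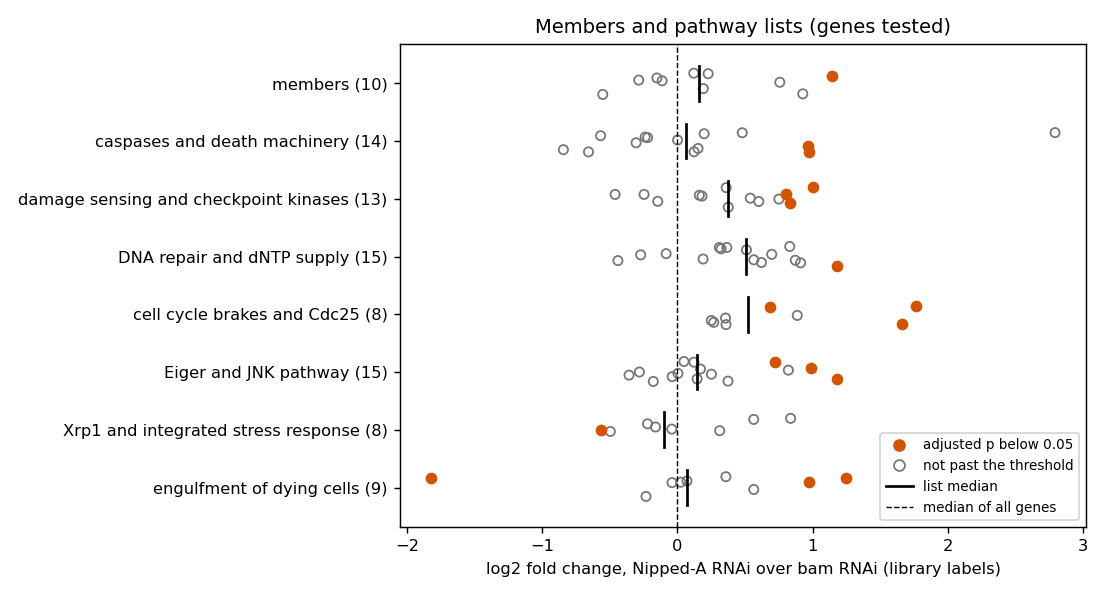
Log2 fold change, *Nipped-A* RNAi-labelled libraries over the *bam* RNAi-labelled libraries (x axis), of each tested gene of the members and the 7 pathway lists, with the number tested in brackets; orange points passed the adjusted threshold, solid bars are list medians and the dashed line is the median of all genes tested. Of the members 1 point is orange, at 1.14, and the points farthest right among the called genes are the Cdc25 genes *stg* and *twe*, at 1.76 and 1.66.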

How the data were processed

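For each library the authors deposited a file of raw gene counts, with no header. Poly(A) RNA was made into directional libraries after 13 minutes of fragmentation, per the labels' protocols. The submitters' processing notes name the build dm6, HISAT2 2.1.0, featureCounts 1.6.0.4 and edgeR 3.16.5; which annotation and strand setting they used, and what became of multi-mapping reads, is not given in the sources used here. Symbols, positions and exonic lengths came from Ensembl gene models on dm6 coordinates, which matched 16647 of 17023 identifiers; *Tango7*, *mus205*, *mus308*, *Ced-6* and *shark* were matched by synonym, and *vas* and *RpS12* were not analysed here.

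Genes were kept with filterByExpr (10245 of 17023), scaled with TMM and tested with glmQLFit and glmQLFTest in edgeR 4.0.16 (R 4.3.3), two-sided, with Benjamini-Hochberg adjustment. Each standard error is the size of the log2 fold change over the square root of F, and 95% intervals use the t distribution of the fit. The biological coefficient of variation was 0.332. The steps were tested on simulated counts. Alternatives were other scalings and filters, DESeq2 1.42.0, limma-voom (limma 3.58.1), robust moderation, a lowess correction for exonic length, a replicate block and leaving out single libraries. Named genes are the members, both targets, *grim*, and for each list up to 4 called genes with the smallest adjusted p. The members and lists were chosen with earlier results of these data known.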

Additional observations from a re-analysis of the deposited data

How the results depend on the processing

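In the main setting 1153 genes were higher and 851 lower (57.5% of calls higher), 1 member was called, and of the pathway lists 14 genes were higher and 2 lower. DESeq2 called 2106 and 1415 genes, 3 members, and 26 and 4 list genes. Upper-quartile scaling called 853 higher and 1556 lower (35.4% higher), 0 members, and 6 list genes as lower, with *rpr* at −0.013 and *mei-41* at −0.093 on the log2 scale. No filter called 3 members and robust moderation 2. RLE scaling, library size alone and limma-voom each called 1 list gene as lower. With the length trend removed *Xrp1* was at −0.033 and *mei-41* at −0.24. Leaving out 1 library at a time gave 0 to 2511 genes higher and 0 to 1771 lower, 0 to 4 members, and 0 to 37 list genes higher and 0 to 6 lower; the zeros came without either *bam* RNAi-labelled library, where a lone library is assumed to vary like the other group. Over these fits *rpr* ran from −0.19 to 0.53, *Xrp1* from −0.0024 to 0.47, *egr* from −0.41 to 0.11 and *mei-41* from −0.10 to 0.37. With the replicate number as a block, 1124 genes were higher and 689 lower. There 0 members and 1 lower list gene were called, and *Corp* had adjusted p = 0.0534 (edgeR). The labels do not say that the numbers pair the libraries. Over all genes tested, same-numbered libraries deviated with a correlation of −0.08, which cannot tell if the block matters for a single gene such as *Corp*. The causes of these shifts were not tested. Of the members, depth limits *rpr* and *skl* most, with 84 to 158 counts per library.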
